A study of Sus scrofa with 12 samples.

Results

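The comparison of 120 with 60 days covers the late growth of a back muscle, the longissimus dorsi, in Meishan pigs, a Chinese breed. It used the 3 arrays whose titles give 120 days and the 3 whose titles give 60 days, which are 6 of the 12 arrays of the series. The other 6 arrays are from fetuses at 65 days post coitus and from piglets at 3 days after birth, and they entered the model for its estimate of the spread and as a scale for the size of the change. The study looked for the expression patterns that accompany the development of skeletal muscle. Pigs of both ages had commercial feeding, with no treatment and no genetic change stated, and were killed at a slaughterhouse. The fetuses of 1 sow counted as 1 individual. The labels call the samples biological replicates and give no sex, no litter and no hybridization date. Each array carried the RNA of whole muscle, so fewer cells of a type and less RNA per cell cannot be told apart. All 23999 probe sets that are not controls were compared, and 10069 of them name 1 gene each, which gives 6765 genes.

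Between weaning and market age a pig's back muscle grows by lengthening and thickening fibres that were already formed before birth. Fibres are told apart by their myosin heavy chains and their troponins, with fast glycolytic fibres prevailing in the longissimus and slow oxidative fibres in the minority. Fuel use is set by pyruvate dehydrogenase kinases, fatty acid transport into mitochondria and the mitochondrial respiratory chain, and fibre size by the balance between insulin-like growth factor signalling and protein breakdown under FOXO transcription factors.

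Values are intensities, the brightness of a probe set on a linear scale, and differences are of means of log2(intensity + 21), so those of dim probe sets are understated. Array medians lay between 49.1 and 51.1. Probe sets at both ends of a transcript measure RNA integrity by their 3-prime over 5-prime ratio. It was 1.08 ± 0.018 (SD, n = 3) at 60 days and 1.13 ± 0.014 at 120 days for GAPDH. For EF1A it was 1.03 ± 0.044 and 1.12 ± 0.016. Actin had a much higher ratio, 5.10 ± 1.17 and 5.08 ± 0.90. That ratio overlapped between ages and was highest in 60 days replicate 1 (6.18). The groups of GAPDH and of EF1A did not overlap (exact permutation test, two-sided, p = 0.1 for each, the smallest that 3 against 3 allows, and 0.3 after adjustment over 6 measures). The summed intensity of 9 skeletal muscle markers ran from 48713 to 54648 at 60 days and from 55164 to 56649 at 120 days, also without overlap. The part of these differences in the results was not tested.

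The 3 pigs of 60 days differed from each other more than the 3 of 120 days did. Over the 12550 probe sets whose mean over the 12 arrays reached the median of all values, the median absolute log2 difference between 2 arrays was 0.276 to 0.345 within 60 days (mean 0.304) and 0.133 to 0.196 within 120 days (mean 0.171). Pairs of 1 array from each age lay from 0.174 to 0.340 (mean 0.255), so an array of 60 days was on average nearer to those of 120 days than to the others of its own age. The mean within 60 days exceeded that within 120 days by 0.134, which an exact permutation test over the 20 ways to assign 6 arrays gave a two-sided p of 0.2 (0.2 adjusted over 2 tests). The mean distance between ages exceeded that within ages by 0.0170 (exact permutation test, one-sided, p = 0.1, the smallest this design allows, and 0.2 adjusted). On the first principal component of these 6 arrays, with 36.7% of the variance, 60 days replicate 1 stood at -43.9 and replicate 2 at 32.2, while replicate 3 and the 3 arrays of 120 days lay between 0.08 and 10.7. Replicates 1 and 2 of 60 days therefore stand apart, in opposite directions, and replicate 3 lies with the older pigs on both components plotted.

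**Figure D1:**
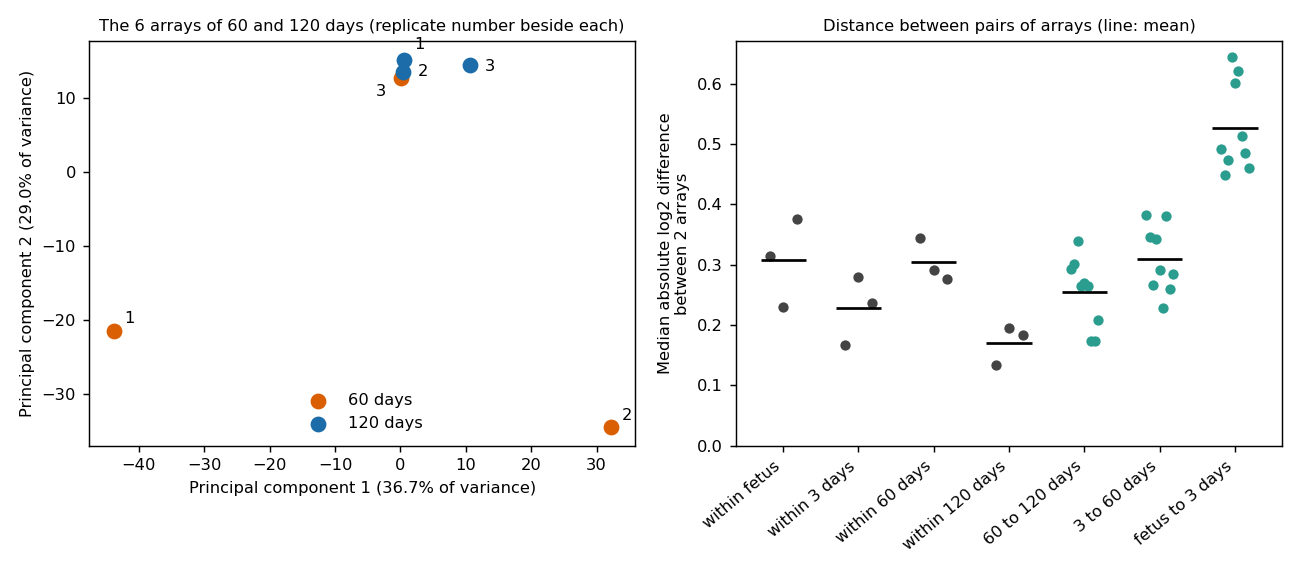
Left: the first and second principal components of the 6 arrays, over all 23999 probe sets, with 36.7% and 29.0% of the variance. The number beside each point is its replicate. Right: median absolute log2 difference for each pair of arrays, over the 12550 brighter probe sets, within and between stages, with a line at the mean. The pairs within 120 days (0.133 to 0.196) lie below all 3 pairs within 60 days (0.276 to 0.345).

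Few differences were called at this step, and no named gene passed the test. Of 23999 probe sets, 1 was called at an adjusted p under 0.05 (0.00417%, limma with Benjamini-Hochberg adjustment), against 195 between 3 and 60 days (0.813%) and 9062 between the fetus and 3 days (37.8%). The 3 steps share arrays and span unequal times, so these counts are given side by side without a test. At an unadjusted p under 0.05 there were 1615 probe sets (6.73%), 1014 higher (4.23%) and 601 lower (2.5%) at 120 days. The higher share, 62.8%, fell to 19.8% when arrays were centred on the hybridization controls, to 49.0% and 40.6% when dim probe sets were left out, and to 51.4% when only the 6 arrays entered the fit, so no overall direction is given. The median absolute difference was 0.11 on the log2 scale, against 0.13 for 3 to 60 days and 0.29 across birth. The differences of 86 probe sets (0.358%) were beyond 2-fold, 32 higher (0.133%) and 54 lower (0.225%).

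A p that misses the threshold does not show that a transcript stayed the same, so the 95% interval of each difference was set against a fixed limit. For 21990 probe sets (91.6%) the whole interval lay within 2-fold either way, and for 65.3% within 1.5-fold. The share within 2-fold was 86.8% for 3 to 60 days and 71.7% across birth. It fell with brightness, from 99.8% in the dimmest 25% of probe sets to 71.2% in the brightest 10%, where the median SE was 0.26 against 0.080. Dim probe sets have compressed differences on this scale, and for the 12177 probe sets whose mean over the 6 arrays was at or above the median the shares were 84.6% within 2-fold and 40.3% within 1.5-fold. A difference between the change from 60 to 120 days and the change from 3 to 60 days was tested for each probe set and called for 0 of them by limma (smallest adjusted p = 0.138, with 1971, or 8.21%, at an unadjusted p under 0.05). That count was 1 without 60 days replicate 3.

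**Figure D2:**
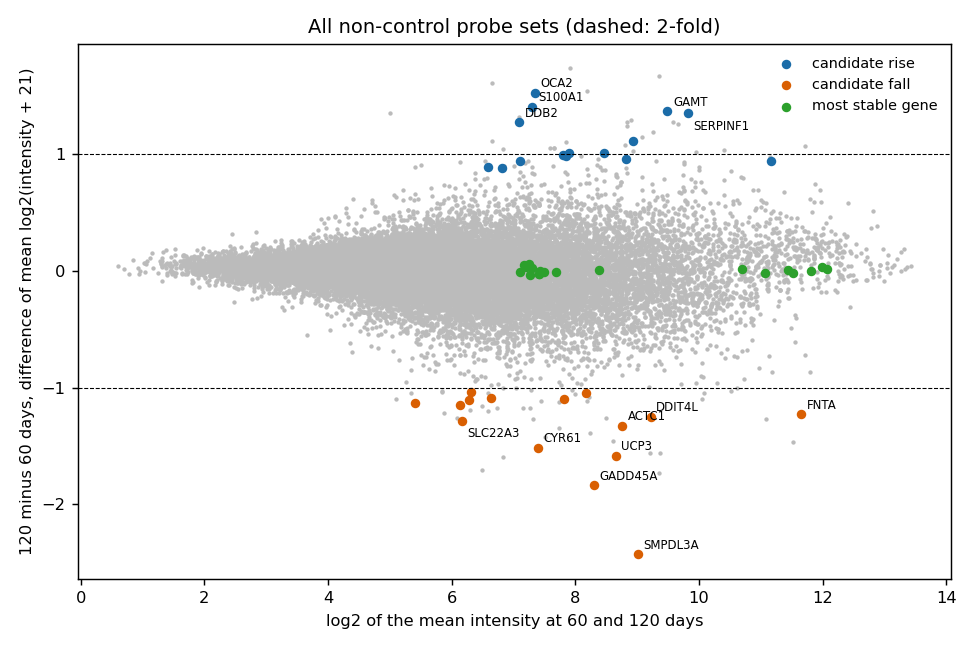
Difference between 120 and 60 days (vertical axis, log2) against the mean intensity of both ages (horizontal axis, log2) for all 23999 probe sets in grey. The 20 most stable genes (green) lie within 0.06 of 0, the 15 candidates higher at 120 days (blue) between 0.88 and 1.52, and the 15 lower (orange) between -2.43 and -1.04; dashed lines mark 2-fold.

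The most stable transcripts were ranked by how near to 0 the farther end of their interval lay. The ranking took genes whose mean over the 6 arrays reached the 75th percentile of all values (136) and whose values all stayed under 0.5 of the array's highest, which left 2830 genes. Of these, 2157 (76.2%) were bounded within 2-fold, 650 (23.0%) within 1.5-fold, and 1 within 1.25-fold. The one within 1.25-fold was MSL1, a scaffold of a histone acetyltransferase complex, which read 173, 188 and 155 at 60 days and 166, 175 and 174 at 120 days. Its difference was -0.00 ± 0.15 (SE), with a 95% interval from -0.32 to 0.32.

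Among the bright members of the 20 most stable genes were some of translation, mitochondrial metabolism and RNA handling. They are single genes and do not stand for their lists. Within 2-fold were 57 of 58 cytoplasmic ribosomal proteins, 34 of 54 oxidative phosphorylation genes and 18 of 21 tricarboxylic acid cycle genes. The share over all genes was 86.4%. RPL7, a protein of the large ribosomal subunit, read 3585, 4720 and 4568 at 60 days and 4316, 4364 and 4197 at 120 days. SUCLG1, a subunit of the enzyme that makes nucleotide triphosphate in the tricarboxylic acid cycle, read 2512, 3110 and 2727, then 2830, 2865 and 2677. ATP5F1, a subunit of the mitochondrial ATP synthase, read 2800, 2932 and 3078, then 2698, 2787 and 3215. In each of these the older pigs fell inside or around the range of the younger ones. HNRNPA2B1, an RNA-binding protein of splicing and transport, read 2121, 2139 and 2200, then 1999, 2116 and 2261. COPS4, of the COP9 signalosome, read 1627, 1708 and 1618, then 1646, 1548 and 1822.

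The other bright members were RPSA of the small ribosomal subunit and RPL6 of the large one. The dimmer members were TMX2, SEC23B of the coat that buds vesicles from the endoplasmic reticulum, BCKDHA of branched-chain amino acid breakdown, PPM1G, DCAF11, ZDHHC16, FAM122A, GATAD2A, MGRN1, the glutamine transporter SLC1A5, ARPC1A of the actin-branching complex, and PEX7 of peroxisomal import. The 20 genes had mean intensities from 137 to 4292 and farther interval ends from 0.321 to 0.374. For 12 of the 20, the SD of log2 values was larger at 60 than at 120 days.

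Stability between 60 and 120 days did not mean a constant level through development. Of the 20 genes, 7 had risen and 0 had fallen from the fetus to 3 days at an adjusted p under 0.05 in limma, while 39.6% of the 2830 ranked genes were called at that step in either direction. ATP5F1 had gone from a mean of 1449 in the fetus to 3540 at 3 days, COPS4 from 586 to 1360 and SUCLG1 from 1513 to 2671. Between 3 and 60 days, 0 of the 20 were called by limma.

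Of 30 genes listed for their roles in muscle contraction, growth and fuel use, 24 were on the table. Only 13 of these 24 were bounded within 2-fold, against 86.4% of all genes. MYH2, the myosin of fast oxidative fibres, read 8007, 7360 and 7639 at 60 days and 7922, 7847 and 7949 at 120 days, a difference of 0.04 ± 0.18 (SE). CKM, muscle creatine kinase, read 9141, 8321 and 8885, then 8960, 9087 and 8917. MYH7, the myosin of slow fibres, read 4798, 4348 and 3178, then 3163, 4113 and 4068. These 3 genes thus overlapped between ages, though CKM reads close to the highest value on these arrays, 10679 to 11540, where a rise may be compressed. RYR1, the calcium release channel, differed by -0.05 ± 0.24.

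IGF1 and IGF2 overlapped between ages, and fat markers were less tightly bounded. The list of insulin-like growth factor and insulin signalling had 15 measured genes, with 0 called, and 1 higher and 3 lower without overlap. Over all genes 6.68% were higher and 6.78% lower, and the list's median difference was -0.04. IGF1, the main local growth factor of muscle, read 115, 90.1 and 103 at 60 days and 92.8, 101.5 and 113 at 120 days, a difference of -0.00 ± 0.14. IGF2, which was called lower between 3 and 60 days (-2.02, adjusted p = 0.00744, limma), read 322, 272 and 305, then 336, 305 and 211. Its difference at the late step was -0.09 ± 0.29, and that of its other 12 probe sets lay from -0.07 to 0.20. Among the genes of fat cells, FABP4, the fatty acid carrier, differed by -0.28 ± 0.37 and ADIPOQ, adiponectin, by -0.22 ± 0.52, neither bounded within 2-fold, while LEP, leptin, was dim and differed by 0.01 ± 0.12. Of 25 measured genes of fat cells and lipid storage, 15 were bounded within 2-fold, against 86.4% of all genes. MSTN, the inhibitor of muscle growth, read 257, 26.1 and 160 at 60 days and 238, 248 and 282 at 120 days. Its difference of 1.05 ± 0.58 came mainly from 60 days replicate 2, and the groups overlapped.

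**Figure D3:**
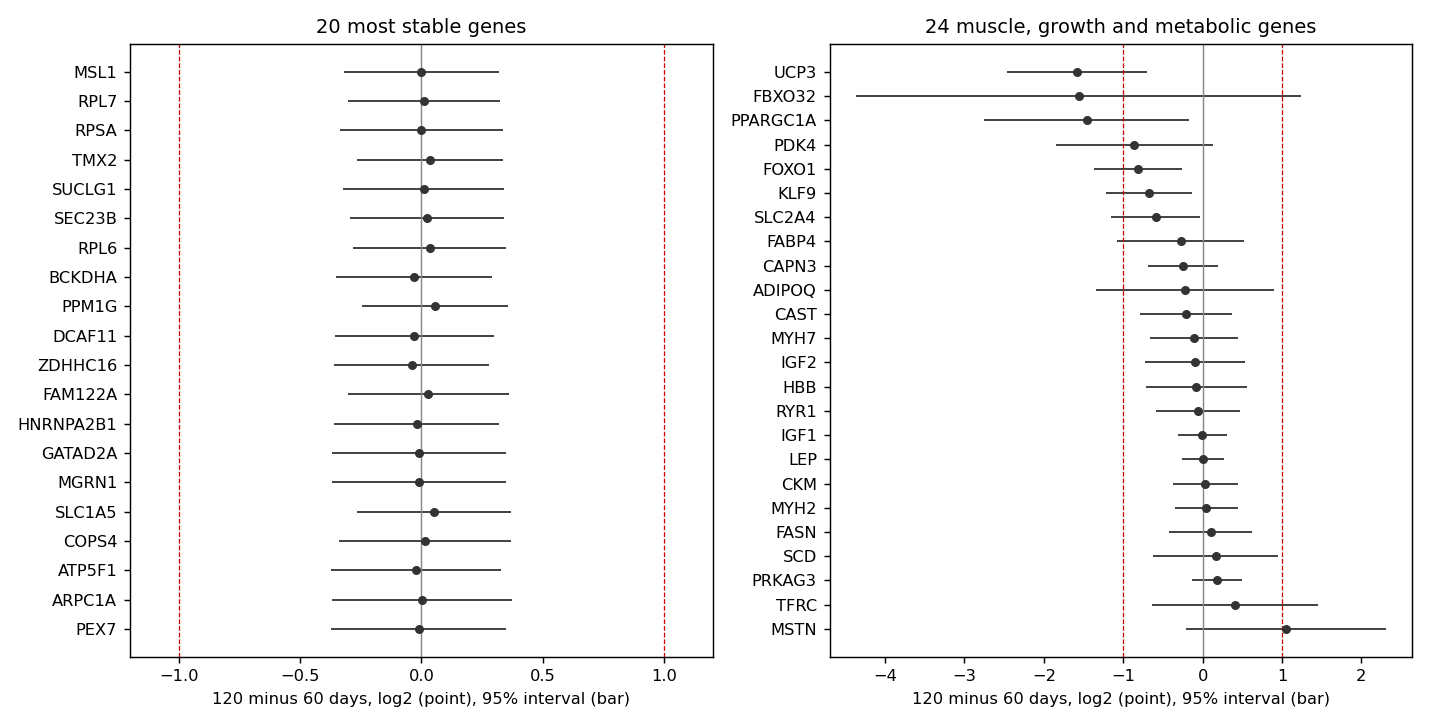
Difference between 120 and 60 days with its 95% interval (log2) for the 20 most stable genes, left, and for 24 genes of contraction, growth and fuel use, right; red dashed lines mark 2-fold. The intervals on the left end within 0.374 of 0, while on the right UCP3, PPARGC1A, FOXO1, KLF9 and SLC2A4 have intervals wholly below 0 before adjustment and FBXO32 has the widest interval.

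The largest candidate changes were taken from genes whose 3 values at one age lay all above the 3 at the other, at an unadjusted p under 0.05, with the higher mean at or above the median. There were 96 such genes higher and 134 lower at 120 days. By the overlap alone, 452 of 6765 genes (6.68%) were higher and 459 (6.78%) lower. The 15 largest in each direction are described here as candidates. Their adjusted p in limma ranged from 0.488 to 0.711 for those higher at 120 days and from 0.0919 to 0.728 for those lower, so none is called, and their sizes come from the arrays that chose them.

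The candidates higher at 120 days have different known functions. S100A1, a calcium-binding protein of striated muscle, read 49.9, 112 and 69.7 at 60 days and 189, 186 and 343 at 120 days, a log2 difference of 1.404 ± 0.373. GAMT, the enzyme of the last step of creatine synthesis, read 361, 208 and 709, then 971, 1092 and 969, a difference of 1.36 ± 0.40. The 3 older pigs were alike in GAMT, and the younger ones were spread apart. MACROD1, a mitochondrial ADP-ribose hydrolase, read 1322, 1225 and 2283, then 3288, 3030 and 2659, and was the brightest of the 15.

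The secreted proteins among them were SERPINF1, PKDCC, RARRES2 and CLEC3B. SERPINF1, the serpin known as pigment epithelium-derived factor, read 879, 215 and 563 at 60 days and 1304, 1051 and 1412 at 120 days, a difference of 1.35 ± 0.39. CLEC3B, tetranectin, read 90.8, 167 and 196, then 366, 338 and 230.5, and RARRES2, chemerin, 74.6, 170.2 and 195, then 332, 205 and 365. PKDCC, a secreted kinase, had a highest value of 364 at 60 days and a lowest of 371 at 120 days, so its groups were separated by little. Without 60 days replicate 2 its difference was 0.49, and without replicate 1 that of RARRES2 was 0.62. For 7 of the 15 candidates the lowest value at 60 days was in replicate 2, for 6 in replicate 1 and for 2 in replicate 3.

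DDB2, which recognises damaged DNA for excision repair, had the smallest adjusted p of the 15 (0.488, limma) and read 64.8, 47.2 and 104 at 60 days and 265, 179 and 159 at 120 days. Its other 2 probe sets differed by 0.33 and 0.34 against 1.27 for the brightest. OCA2, a transporter of pigment organelles, had the largest difference, 1.52 ± 0.47, from 109, 10.4 and 148 to 289, 205 and 212. Without 60 days replicate 2 that difference was 0.78, and without replicate 2 that of SERPINF1 was 0.81. IRF7, a transcription factor of the interferon response, read 95.1, 89.3 and 77.6, then 203, 145 and 217, while its second probe set differed by 0.10 ± 0.15 with overlap. ADAM17, the protease that sheds tumour necrosis factor, was higher on 1 probe set (0.89 ± 0.24), while its other 3 differed by -0.15 to -0.07. SMIM8 (1.11), ANKRD39 (0.95), TEX9 (0.88) and SMIM4 complete the 15. Without 60 days replicate 1 the difference of ANKRD39 was 0.57 and that of SMIM4 0.66, and without 120 days replicate 3 that of TEX9 was 0.58. PKDCC, ANKRD39, ADAM17 and TEX9 each lost their separation in 1 of 25 alternatives.

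**Figure D4:**
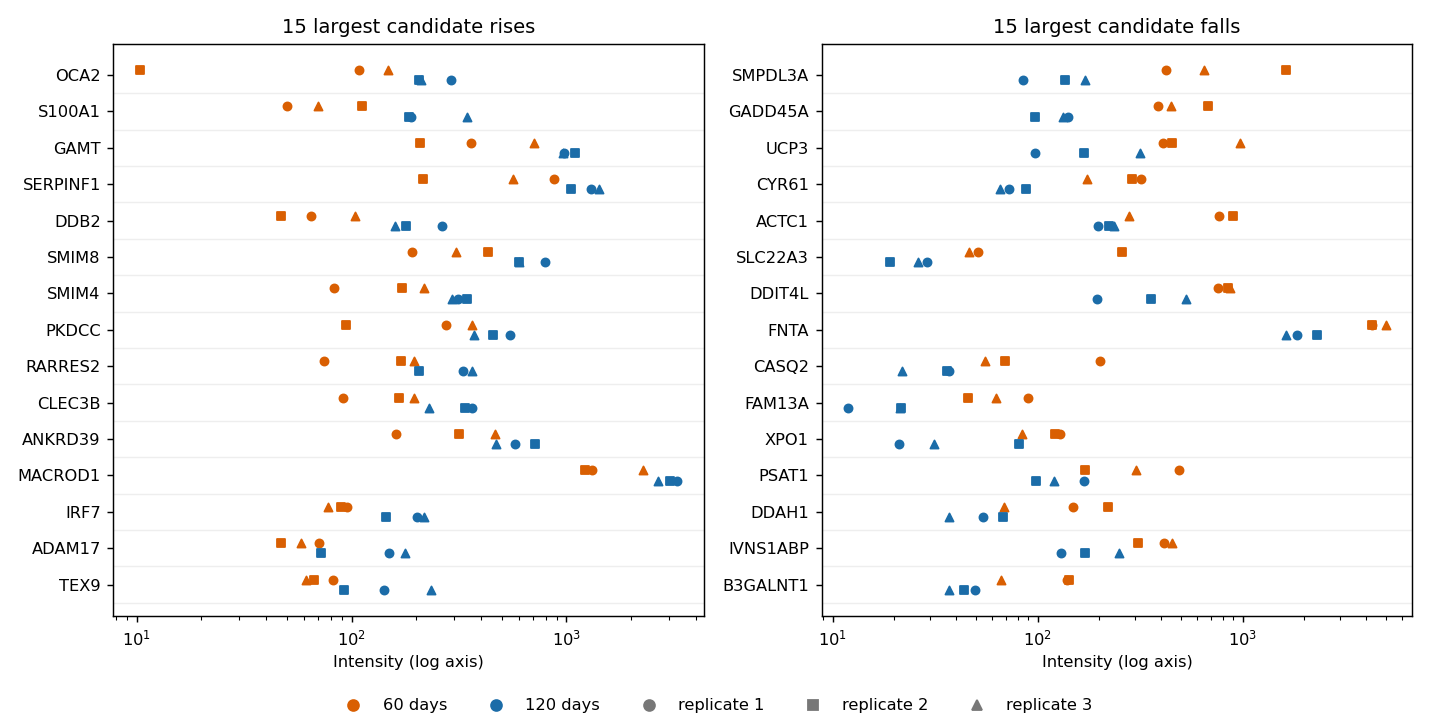
Intensity on each array (log axis) of the 15 largest candidates higher at 120 days, left, and lower, right, with 60 days in orange and 120 days in blue and 1 marker shape per replicate number. In each row the groups do not overlap, as the choice requires; OCA2 has 1 value of 60 days (10.4) far below the rest.

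The candidates lower at 120 days were larger in size, all 15 beyond 2-fold, and included stress and fuel genes. SMPDL3A, a secreted phosphodiesterase of the sphingomyelinase family, had the largest difference of all, -2.43 ± 0.58, from 425, 1623 and 650 at 60 days to 85.0, 135 and 169 at 120 days. GADD45A, induced by growth arrest and DNA damage, read 386, 678 and 448, then 141, 96.8 and 133. CYR61, a matricellular protein made in response to mechanical load, read 320, 290 and 174, then 72.8, 87.8 and 65.9, a difference of -1.51 ± 0.27 (adjusted p = 0.322, limma). In all 3 genes each older pig was below the lowest younger one by a wide margin. DDIT4L, an inhibitor of mTOR signalling in muscle, read 758, 854 and 871, then 195, 358 and 532, close values at 60 days and spread ones at 120 days.

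FNTA, the alpha subunit of the enzyme that attaches farnesyl groups to proteins, came nearest to a call among named genes. It read 4270, 4273 and 4990 at 60 days and 1852, 2309 and 1630 at 120 days, a difference of -1.23 ± 0.17 (SE; adjusted p = 0.0919, limma). Over 25 alternatives the adjusted p ran from 0.0513 to 0.701 and the difference from -1.36 to -1.11. In the fetus and at 3 days its means were 5097 and 5591, so its 120-day values were the lowest of the 4 stages. Its other 2 probe sets, which were much dimmer, differed by -0.27 and -0.03. XPO1, the nuclear export receptor, read 129, 122 and 84.1, then 21.2, 80.9 and 31.2, and its second probe set differed by -0.75, also without overlap.

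For 2 of the 15, ACTC1 and CASQ2, the lower values followed a called decline at the previous step. ACTC1, the cardiac actin that immature skeletal muscle also makes, had been called lower between 3 and 60 days (-3.01, adjusted p = 0.00519, limma) and read 764, 896 and 278 at 60 days and 198, 224 and 235 at 120 days. CASQ2, the calsequestrin of slow and cardiac muscle, had also been called lower at that step (-2.97). It read 201, 69.2 and 55.7, then 37.1, 36.0 and 21.8, and its second probe set differed by -0.56 without overlap. Without 60 days replicate 1 the brighter one differed by -0.67. The lists these genes belong to did not share their direction, since the median difference was 0.16 over 12 slow fibre genes and 0.12 over 5 developmental contractile isoforms. UCP3 had gone the other way, called higher between 3 and 60 days (2.48, adjusted p = 0.0159, limma) before its lower values at 120 days. SLC22A3 (-1.28), FAM13A (-1.13), PSAT1 of serine synthesis (-1.10), DDAH1 (-1.09), IVNS1ABP (-1.04) and B3GALNT1 (-1.04) complete the 15. The second probe set of B3GALNT1 differed by 0.02, and XPO1 and DDAH1 each lost their separation in 1 of 25 alternatives. Without 60 days replicate 2, SLC22A3 differed by -0.61.

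The single called probe set, Ssc.29286.1.A1_at, has no gene name here and was dim. It read 11.8, 11.4 and 13.6 at 60 days and 25.8, 31.2 and 33.3 at 120 days, a difference of 0.62 ± 0.071 (adjusted p = 0.0237, limma), all below the array medians. The call was lost in 10 of the 22 alternatives that included it, among them those without 60 days replicate 1 or 2. Its means in the fetus and at 3 days were 5.51 and 8.61. Of the 25 probe sets with the smallest p, 18 have no gene name here.

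Genes of fatty acid use tended lower, with no call. Of 28 measured genes of fatty acid uptake and oxidation, 4 did not overlap and were lower at 120 days and 0 were higher (6.68% of all genes were higher and 6.78% lower), and the list's median difference was -0.26 against 0.01 over all 6765 genes. UCP3, the uncoupling protein of muscle mitochondria, read 411, 454 and 971 at 60 days and 97.4, 168 and 317 at 120 days, a difference of -1.58 ± 0.41, and its second probe set differed by -0.81 with overlap. PDK4, the kinase that shuts off pyruvate entry when fat is burned, read 4997, 4228 and 4388, then 1595, 2893 and 3294. Its second probe set differed by -1.27 without overlap, against -0.86 for the brightest.

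CPT1B, which carries fatty acids into muscle mitochondria, read 166, 380 and 178, then 134, 112 and 158. ACADL, the long-chain acyl-CoA dehydrogenase, read 418, 737 and 373, then 347, 275 and 342. In both, 60 days replicate 2 was far the highest and the other pigs of 60 days lay just above those of 120 days. PPARGC1A, a coactivator of mitochondrial genes, differed by -1.46 ± 0.60 with overlapping groups, since 60 days replicate 3 read 1257 and the other 2 read 293 and 267. The list's median stayed below 0 under each of 3 other scalings (-0.34 to -0.20) and without each array in turn (-0.35 to -0.14, the latter without 60 days replicate 2).

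Of the genes of fuel use outside that list, 3 chosen ones did not overlap. FOXO1, a transcription factor of the fasted state, read 270, 456 and 411 at 60 days and 174, 253 and 184 at 120 days, a difference of -0.82 ± 0.26. SLC2A4, the insulin-dependent glucose transporter, read 128, 215 and 130, then 77.1, 93.1 and 118, and KLF9, a target of the glucocorticoid receptor, 1103, 958 and 757, then 583, 701 and 461. These 3, UCP3 and PDK4 were the 5 of 24 chosen genes whose groups did not overlap, all lower at 120 days. The dimmer probe sets of FOXO1 (-0.05), SLC2A4 (-0.02 and -0.10) and KLF9 (0.18) differed little. Of 21 tricarboxylic acid cycle genes, 2 were lower and 1 higher without overlap, with a median of -0.23 (-0.12 without 120 days replicate 1). Of 23 glycolysis and glycogen genes 3 were lower and 1 higher, with a median of 0.06 (-0.02 with arrays centred on the hybridization controls). Over all genes, 6.68% were higher and 6.78% lower without overlap. Of 12 glucocorticoid and clock targets, 1 was lower and 0 higher.

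Chaperones and early response genes whose groups did not overlap were lower at 120 days. Of 29 measured genes, 6 were lower and 0 higher (6.78% and 6.68% of all genes), with a median of -0.10 against 0.01 over all genes. HSP90AB1, a cytosolic chaperone, read 2365, 3406 and 2052 at 60 days and 1468, 1429 and 1372 at 120 days, a difference of -0.83 ± 0.25. HSP90AA1, its inducible partner, read 4820, 3891 and 3873, then 2276, 2413 and 2932, and HSPA5, the chaperone of the endoplasmic reticulum, 1262, 2689 and 1071, then 965, 1012 and 842. The remaining non-overlapping members were HSPD1, KLF9 and GADD45A. FOS (0.34 ± 0.62) and ATF3 (-0.08 ± 0.86), which respond within minutes to handling, had overlapping groups and wide errors. The list's median moved with single pigs, to -0.29 without 60 days replicate 1 and to 0.15 without 60 days replicate 3.

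Fast fibre, slow fibre and ribosomal genes were mostly bounded, and genes of the sarcomere and cytoskeleton frame less often. All 9 measured fast fibre genes had intervals within 2-fold, and 2 were higher without overlap (6.68% of all genes). Their median of 0.16 became 0.08 without 60 days replicate 1 and 0.09 with hybridization-control centring or quantile normalization. MYLPF, the fast regulatory myosin light chain, read 7833, 10122 and 9859, then 10240.5, 10238 and 10472, close to the highest value on these arrays. TNNI2, fast troponin I, read 5399, 5332 and 7873 at 60 days and 8065, 7770 and 7734 at 120 days, so 2 of the younger pigs were low and 60 days replicate 3 matched the older ones. TNNT3, fast troponin T, had the same order, with 6192, 5366 and 8280, then 8637, 8676 and 8077. Within 2-fold were 57 of 58 cytoplasmic ribosomal proteins, 4 of 4 genes of calcium release and uptake, 10 of 12 slow fibre genes and 13 of 18 genes of the sarcomere and cytoskeleton frame, against 86.4% of all genes. Of 9 genes of imprinted and fetal growth, 7 were bounded, and of 26 cell cycle genes 23, with 4 higher and 2 lower without overlap (6.68% and 6.78% of all genes). TUBA1B, an alpha-tubulin in that list, read 1317, 1349 and 1470, then 914, 983 and 985.

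Several lists were set by 1 or 2 pigs of 60 days. For each gene the deviation from its mean over the 6 arrays was taken, and for each list the median of these. The 54 oxidative phosphorylation genes stood at -0.71 in 60 days replicate 1 and between -0.03 and 0.33 on the other 5 arrays. The 58 ribosomal protein genes stood at -0.60 in the same pig and between -0.02 and 0.25 elsewhere. Their differences between ages, 0.21 and 0.16, became -0.10 and -0.10 without that array. COX7A1, a muscle isoform of cytochrome oxidase, shows the pattern in a single gene, with 1330, 3253 and 3080 at 60 days and 2769, 2966 and 3354 at 120 days.

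Protein breakdown and autophagy genes, 38 measured, split the 60-day pigs in both directions, at -0.56 in replicate 1, 0.61 in replicate 2 and -0.16 in replicate 3, against -0.07 to 0.13 at 120 days. FBXO32, the ubiquitin ligase known as atrogin-1, read 176, 2488 and 625 at 60 days and 137, 171 and 388 at 120 days, and its second probe set read 182, 2169 and 555, then 130, 163 and 336. Its difference of -1.56 ± 1.30 is not larger than this spread. Extracellular matrix genes, 30 measured, went the opposite way in the same pigs, at 0.43 in replicate 1 and -0.31 in replicate 2. COL15A1, a collagen of basement membranes, read 1379, 134 and 1038, then 964, 1039 and 635.

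**Figure D5:**
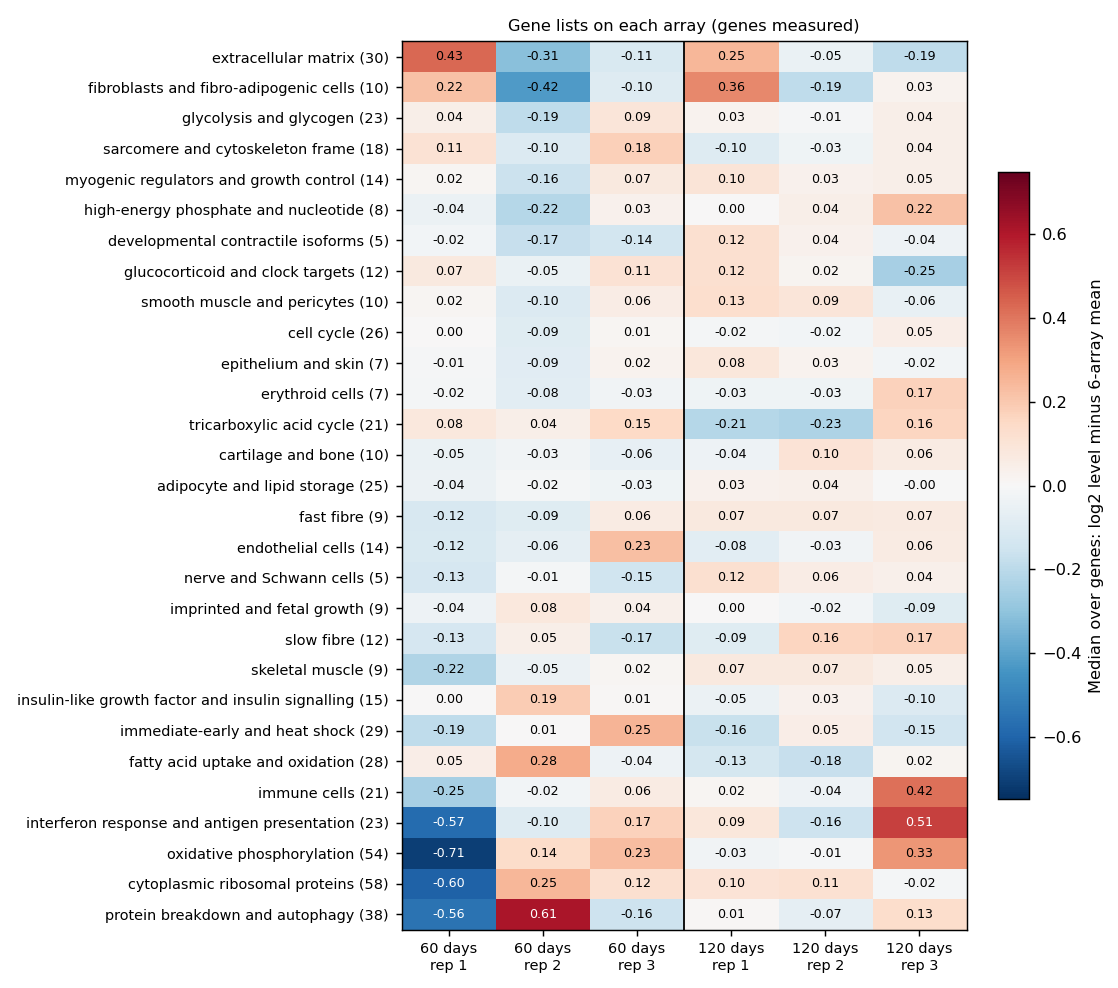
Median over the genes of each list of the log2 level minus the gene's mean over the 6 arrays; columns are arrays, rows are lists with the number of genes measured, and red is above and blue below the gene's own mean. Oxidative phosphorylation (-0.71), ribosomal (-0.60) and interferon (-0.57) genes are lowest in 60 days replicate 1, and protein breakdown genes highest in replicate 2 (0.61).

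Markers of other cell types gave no call. The 21 immune cell genes had 3 higher and 0 lower without overlap (6.68% and 6.78% of all genes) and a median of 0.25, which was 0.00 without 60 days replicate 1. CD14, the monocyte receptor for bacterial lipopolysaccharide, had the largest rise of this list, from 44.3, 37.9 and 39.4 at 60 days to 69.8, 62.1 and 117 at 120 days. CD163 and CXCR4 of the same list had lower means at 120 days, 217 against 246 and 79.1 against 93.0. The summed intensity of the immune list ran from 1397 to 2568 at 60 days and from 1577 to 3777 at 120 days. The 23 interferon and antigen presentation genes had a median of 0.37, which was 0.12 without 60 days replicate 1. Of these genes 1 was higher without overlap and 3 were bounded within 2-fold. ISG15, an interferon-induced ubiquitin-like protein, read 43.4, 233 and 515, then 270, 258 and 1406, highest in 120 days replicate 3, where the list stood at 0.51.

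The marker lists had 116 measured entries, with DES in both the smooth muscle and the skeletal muscle list. Of these, 14 were never above the 40th percentile of any array used, and 0 were at 0 on any of these arrays. Among the 14 were CD3E and CD8A of T cells, AHSP of erythroid cells and EPCAM and CDH1 of epithelium. Other genes of the same lists were above it, CD3D on 5 of the 6 arrays and HBB, ALAS2, KRT8 and CLDN4 on 6. Summed fibroblast markers (3790 to 6611, then 4278 to 6703) and endothelial markers (2563 to 3262, then 2326 to 2578) overlapped between ages. Epithelial and skin markers did not overlap (329 to 364, then 372 to 424), with 0 of 7 genes separated, and their part in the results was not tested.

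The genes that varied most among the 60-day pigs are named after their values were seen. NR4A3, an orphan nuclear receptor induced by exercise and stress, read 54.2, 71.8 and 1732 at 60 days and 83.5, 377 and 42.6 at 120 days. UCHL1, a deubiquitinase of neurons, read 84.1, 1432 and 65.9, then 81.8, 83.1 and 288, and NREP, a protein of regenerating tissue, 3900, 152 and 2435, then 2565, 2733 and 1752. Each was set apart by 1 pig. Over the 12550 brighter probe sets the median SD of log2 values was 0.266 at 60 and 0.145 at 120 days, and the SD was larger at 60 days for 74.6% of them. An SD above 1 was found for 250 probe sets at 60 days and 42 at 120 days. EIF1AY, a gene of the Y chromosome, read 10.4, 15.6 and 636 at 60 days and 13.4, 17.2 and 629 at 120 days. Each age thus had 1 array with a high value, and the labels give no sex.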

How the data were processed

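Total RNA of longissimus dorsi was hybridised to Affymetrix porcine arrays, 1 per sample, per the labels' protocols. The authors deposited linear intensities, for which the submitters' processing notes name GCOS 1.4. Probe summary, background correction and scaling: not given in the sources used here. The 124 control probe sets were left out of the tests, and 23999 remained. One limma 3.58.1 fit (R 4.3.3) of log2(value + 21) used all 12 arrays with a mean for each stage and a trended variance. It had 8 residual and 4.83 prior degrees of freedom, and p-values were adjusted over all probe sets. Names came from a 2016 annotation. The probe set with the highest mean over 12 arrays stood for a gene. The 30 gene lists had 759 distinct members, 537 of them measured. The members, lists and naming rules were chosen with earlier results of these data known. The naming rule takes the 15 largest candidates per direction, the called probe sets, the 20 most stable genes and 30 chosen genes, and skips locus names. From each list it takes the largest difference either way and the member bounded most tightly. CPT1B, ACADL, HSP90AA1, HSP90AB1, HSPA5, HSPD1, TNNI2, MYLPF, COX7A1, FOS, ATF3, EIF1AY, NR4A3, UCHL1 and NREP were picked out after their values were seen. The marker genes CD163, CXCR4, CD3D, ALAS2, KRT8 and CLDN4 were also picked in this way. Precision is limited by the number of arrays. The fit was tested on simulated data. Alternatives were other pseudocounts, filters, scalings, variance models, a replicate block, array weights, only 1 probe set per gene, and leaving out each array in turn.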

Additional observations from a re-analysis of the deposited data

How the results depend on the processing

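The call of 1 probe set became 0 with a filter at the 40th or 60th percentile, a pseudocount of 1, centring on the hybridization controls, only the arrays compared, no variance trend, or 1 probe set per gene, and 2 at an adjusted p under 0.1. In these limma fits the probe sets at an unadjusted p under 0.05, higher and lower, numbered 500 and 521, 267 and 391, 931 and 673, 205 and 829, 857 and 809, 927 and 698, and 230 and 183, in the order given. Both filters and the setting with 1 probe set per gene left the called probe set out, so its call could not recur there. Leaving out each array gave 0 to 8 calls. The count was 8 without 60 days replicate 3, and 0 without fetal replicate 1, 3 days replicate 1, 60 days replicates 1 or 2, or 120 days replicate 3. The 1 call without 120 days replicate 2 was another probe set. The share bounded within 2-fold ranged from 82.9% to 94.6%, and from 86.0% to 92.4% without 1 array. Calls for a difference from the previous step were 0 in each setting other than leaving out 1 array, which gave 0 to 1. The excess of the distance within 60 days was 0.184 with hybridization-control centring and 0.105 to 0.174 without 1 array. The 30 candidates kept their sign and had 0 calls, and the 20 stable genes stayed within 1.5-fold, in every alternative that included them. Candidates were chosen for groups that do not overlap. Their signs therefore could not reverse without 1 array, with another pseudocount or with another variance model. The stable genes were likewise chosen for narrow intervals in the same data. Of 30 list medians, 11 changed sign under a scaling. The labels do not say whether the replicate numbers pair the samples. Deviations of same-numbered arrays correlated at 0.103, -0.086 and 0.030, and those of differently numbered arrays at -0.147 to 0.122. With so few arrays these values cannot settle whether the numbers pair. The fit with the replicate number as a block called 1 probe set, the same one.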
